A study of Mus musculus with 5 samples.

Results

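The comparison is of the lung of a mouse group given PM10, ovalbumin and CPX with the lung of a group given PM10 and ovalbumin, 2 libraries out of the 5 in the study. CPX is the labels' name for a chitinase-1 inhibitor. All 5 groups were female BALB/c mice of wild-type genotype, and RNA of the whole lung was sequenced with 1 library per group. PM10 is inhalable airborne particulate matter, dosed intranasally 4 times in 2 weeks. Ovalbumin (OVA, an egg-white protein used as an allergen) was first injected into the peritoneum and later dosed intranasally. The PM10/OVA/CPX group also received CPX into the peritoneum 6 times over 3 weeks. The PM10/OVA group received the particles and the allergen without a drug. The other 3 groups serve only to place these levels: PM10/OVA/Dex (dexamethasone, a synthetic glucocorticoid, injected 3 times in the last week), PM10 alone, and an unexposed control. The lungs were collected 2 days after the final challenge. The sources used here give no ages, doses or injection vehicle, and do not say whether animals were pooled. The series title places the comparison in airway inflammation, fibrosis and the suppression of chitinase-1.

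Mammals make no chitin, but they keep a pair of active chitinases, Chit1 and the acidic chitinase Chia1, and several related lectins that bind sugars without cutting them. In mice the lectins Chil3 and Chil4 are abundant products of airway epithelium and macrophages during allergic inflammation. Allergic inflammation driven by the cytokines interleukin 4 and interleukin 13 is known for mucus, eosinophils and eotaxins. Particles are known for another pattern, with neutrophils, interleukin 1 and acute-phase proteins.

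Levels are CPM, read counts scaled to a common library total with TMM factors over the 5 libraries. Genes that averaged 1 CPM or more over them are called measured, 14305 of 23183 listed. The PM10/OVA/CPX library held 12612578 counts and the PM10/OVA library 16036136, so a single count was worth 0.0798 and 0.0631 CPM. TMM factors of the 5 libraries lay between 0.989 and 1.02. Log2 ratios are PM10/OVA/CPX over PM10/OVA on log2(CPM + 1), a scale that makes folds of low genes look smaller, and the 2-fold threshold is set on it. Folds are ratios of CPM with an exact 95% counting interval in parentheses. With 1 library per group there is no spread between replicates, so no difference was tested and the intervals cover counting error only. Markers of lung tissue were high in both libraries: the surfactant protein gene Sftpc, of alveolar type 2 cells, was at 13412 CPM in PM10/OVA/CPX and 13995 CPM in PM10/OVA.

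In the PM10/OVA/CPX lung 91 of the 14305 genes, 0.636%, were higher by 2-fold or more, and 109, 0.762%, were lower by that much. Together these are 1.40% of the measured genes. The list counts given below can be set against these shares. The median log2 ratio over all measured genes was -0.004, and the 5th and 95th percentiles were -0.48 and 0.48, so the 2 libraries were alike for most genes. The whole counting interval lay beyond 2-fold for 54 of the higher and 74 of the lower genes. Just inside the threshold were Clca3b at 1.003 and M1ap at -1.007, and just outside it Rgs5 at 0.999 and Gpr176 at -0.983. Of the 109 lower genes, 81 had their highest level of all 5 libraries in PM10/OVA and 34 their lowest in PM10/OVA/CPX. Of the 91 higher genes, 74 had their highest level in PM10/OVA/CPX and 30 their lowest in PM10/OVA. Both sets were chosen by the ratio of these same 2 libraries. That choice by itself favours such extremes, so these counts are description only. The higher genes were led by chitinase-like lectins, mucus and goblet-cell products, and antibody-joining and eosinophil genes. The lower genes were led by chemokines, interleukin 1 family genes, acute-phase genes and the protease inhibitor Timp1.

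**Figure D1:**
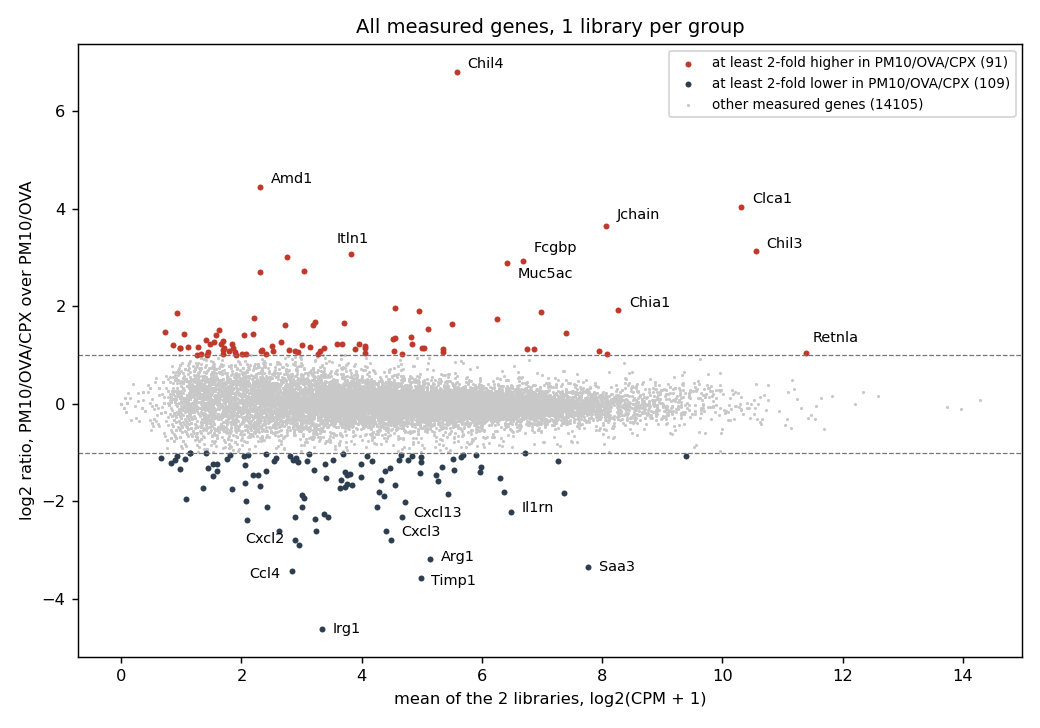
Each point is a measured gene, with the mean of both libraries on log2(CPM + 1) on the horizontal axis and the log2 ratio of PM10/OVA/CPX over PM10/OVA on the vertical axis, 1 library per group. The 91 higher and 109 lower genes past 2-fold lie outside the dashed lines, with Chil4 at 6.81 and Irg1 at -4.62 as the extremes.

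Of the 6 measured members of the chitinase list, 3 were higher in PM10/OVA/CPX by 2-fold or more, against 0.636% of all measured genes. None was lower by that much, and the median log2 ratio was 1.0. Chia1, the acidic chitinase that cuts chitin (GRCm38 chromosome 3, 106113382 to 106132118), was at 596 CPM in PM10/OVA/CPX and 157 CPM in PM10/OVA. It was at 268 CPM in PM10/OVA/Dex, 57.9 CPM in PM10 and 79.9 CPM in control. Its ratio was 3.79 (3.62 to 3.97), and the PM10/OVA/CPX lung had the highest level of the 5. Chil3, a lectin also known as Ym1, was at 4455 CPM in PM10/OVA/CPX and 510 CPM in PM10/OVA, a ratio of 8.74 (8.54 to 8.95). Chil4, its neighbour on chromosome 3 and also known as Ym2, had 6345 counts in PM10/OVA/CPX and 56 counts in PM10/OVA, which is 507 CPM and 3.53 CPM and a ratio of 143 (110 to 190). The 2 libraries without ovalbumin held no Chil4 count, and PM10/OVA/Dex stood between the compared lungs at 40.8 CPM.

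The remaining members did not follow. Chil1, a chitinase-like lectin made by epithelium and macrophages (chromosome 1, 134182156 to 134190031), was at 2611 CPM in PM10/OVA/CPX and 3067 CPM in PM10/OVA, 1.17 times lower (1.16 to 1.19). It remained far above the 499 CPM of control. Chid1, which encodes a chitinase-domain protein, was at 31.1 CPM in PM10/OVA/CPX and 39.3 CPM in PM10/OVA. Ctbs, a lysosomal chitobiase, was at 20.1 CPM in PM10/OVA/CPX and 19.0 CPM in PM10/OVA. Chit1, the gene of chitinase-1 itself, had no count in any of the 5 libraries, which allows up to 0.240 CPM in PM10/OVA/CPX and 0.189 CPM in PM10/OVA with a limit of 3 counts. Whether CPX altered the transcript of its named target was therefore not detectable at this depth. Chil6 likewise had no count in either compared library.

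**Figure D2:**
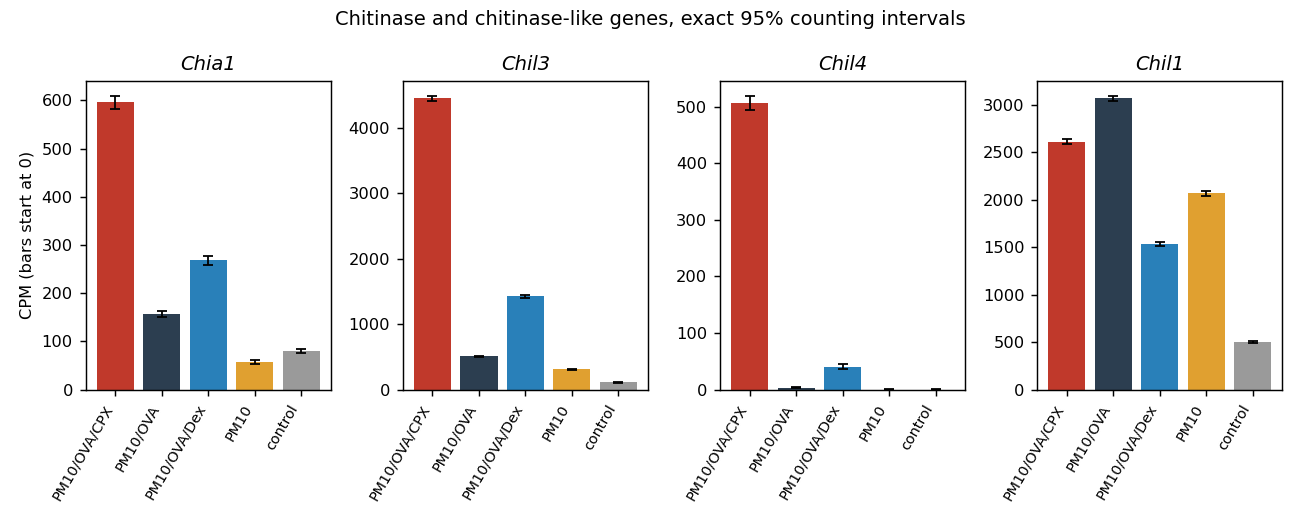
Bars give the CPM of Chia1, Chil3, Chil4 and Chil1 in the 5 libraries, each axis starting at 0, and error bars are exact 95% counting intervals. Chia1, Chil3 and Chil4 have their tallest bar in PM10/OVA/CPX, at 596, 4455 and 507 CPM, while Chil1 has its tallest in PM10/OVA, at 3067 CPM.

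Chil3 and Chil4 are shown by sequence because their ratios were 8.74 and 143 although the genes are near copies. The windows run from 250 bases before to 50 after the RefSeq start (GRCm38.p6), at chr3:106167515-106167814 for Chil3 and chr3:106219430-106219729 for Chil4, both on the minus strand. Capitals mark bases without a match in the alignment of the pair, including the ends where only 1 window reaches.
Chil3: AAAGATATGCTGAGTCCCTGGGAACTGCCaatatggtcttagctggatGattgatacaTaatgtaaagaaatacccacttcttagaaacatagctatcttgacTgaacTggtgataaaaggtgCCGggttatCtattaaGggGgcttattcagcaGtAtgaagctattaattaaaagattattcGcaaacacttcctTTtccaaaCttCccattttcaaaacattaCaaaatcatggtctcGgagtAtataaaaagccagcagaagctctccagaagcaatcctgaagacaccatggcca
Chil4: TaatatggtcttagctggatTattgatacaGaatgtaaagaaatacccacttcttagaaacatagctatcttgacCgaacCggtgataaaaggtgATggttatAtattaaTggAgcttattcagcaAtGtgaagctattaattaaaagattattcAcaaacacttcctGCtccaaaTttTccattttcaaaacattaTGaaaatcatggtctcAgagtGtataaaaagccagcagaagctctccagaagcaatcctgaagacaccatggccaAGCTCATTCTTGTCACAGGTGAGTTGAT
Over the stretch that both windows cover, 251 of 272 aligned columns were identical, which is 92.3%. Of the 50-base windows of their transcripts, 18.5% were the same in both genes, so reads from those stretches could be counted for either, and the separate levels of the pair are uncertain to that extent.

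Among the gene lists, the mucous-cell list had the most members at least 2-fold higher. Of the measured genes higher by that much, 25 were in a list and 66 were in none. Groups of genes outside the lists were therefore not ranked. Of 17 measured members of the mucous-cell list, 8 were at least 2-fold higher and none was at least 2-fold lower, with a median of 0.93 against -0.004 over all genes. In whole lung, more cells of a type and more RNA per cell cannot be told apart, and the same holds for lower levels. Clca1, a secreted protein of goblet cells that processes mucus (chromosome 3, 145004537 to 145032776), was at 5154 CPM in PM10/OVA/CPX and 313 CPM in PM10/OVA. PM10 held 7.12 CPM and control 1.61 CPM, so this gene was low wherever ovalbumin had not been given. Its ratio was 16.5 (16.0 to 17). Muc5ac, the gel-forming mucin of goblet cells, was at 231 CPM in PM10/OVA/CPX and 30.6 CPM in PM10/OVA, a ratio of 7.56 (6.86 to 8.34). Fcgbp, a mucus protein that binds antibody, was at 283 CPM in PM10/OVA/CPX and 36.3 CPM in PM10/OVA, a ratio of 7.80 (7.14 to 8.53).

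The other members of the list past 2-fold went the same way. Itln1, a lectin that binds microbial sugars, was at 40.2 CPM in PM10/OVA/CPX and 3.91 CPM in PM10/OVA, a ratio of 10.3 (7.88 to 13.6). Capn9, a protease of gastric and airway mucous cells, had 146 counts in PM10/OVA/CPX and 15 counts in PM10/OVA, a ratio of 12.3 (7.23 to 22.6). Tff2, a trefoil peptide of mucus, was at 79.1 CPM in PM10/OVA/CPX and 24.9 CPM in PM10/OVA, a ratio of 3.18 (2.83 to 3.59). Muc5b, the mucin present in healthy airways, differed least of the 8, with 359 CPM in PM10/OVA/CPX and 169 CPM in PM10/OVA and a ratio of 2.12 (2.02 to 2.23). Ern2, a stress sensor of mucous cells, had 48 counts in PM10/OVA/CPX and 13 counts in PM10/OVA, a ratio of 4.67 (2.49 to 9.40).

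Genes of mucous-cell identity and mucin folding were also in the list, and the 3 given here were chosen after their values were seen. Spdef, the transcription factor of goblet cells, was at 8.14 CPM in PM10/OVA/CPX and 3.78 CPM in PM10/OVA, a ratio of 2.15 (1.55 to 3.01) and a log2 ratio of 0.93. Foxa3, another factor of that programme, was at 2.87 CPM in PM10/OVA/CPX and 1.14 CPM in PM10/OVA, a ratio of 2.53 (1.40 to 4.74). Agr2, a protein-folding enzyme needed for mucin, was at 23.2 CPM in PM10/OVA/CPX and 26.1 CPM in PM10/OVA. Below the filter on low values, Tff1, a trefoil peptide, had 49 counts in PM10/OVA/CPX and none in PM10/OVA, at least 20.7-fold higher with 3 counts set for the empty library. That gene too was chosen after its values were seen.

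Genes of other kinds also stood among the 20 highest. Slpi, a protease inhibitor of airway secretions, was at 242 CPM in PM10/OVA/CPX and 64.9 CPM in PM10/OVA, a ratio of 3.72 (3.47 to 4.0). Sprr2a3, a cross-linked protein of epithelial surfaces, had 230 counts in PM10/OVA/CPX and 22 counts in PM10/OVA, a ratio of 13.2 (8.53 to 21.5). Scin, an actin-severing protein, had a ratio of 9.08 (6.36 to 13.3). Cyp26b1, which breaks down retinoic acid, was at 138 CPM in PM10/OVA/CPX and 40.4 CPM in PM10/OVA, while control was higher than both at 364 CPM. Slc13a4, a sulfate transporter, and the noncoding RNA Snhg11 had ratios of 3.72 (2.81 to 4.99) and 4.96 (3.14 to 8.12). Amd1, an enzyme of polyamine synthesis, had 278 counts in PM10/OVA/CPX and 1 count in PM10/OVA, a ratio of 352 (62.6 to 13948). Its copy Amd2 had 739 counts in PM10/OVA/CPX and 1706 counts in PM10/OVA, and 86.1% of the 50-base windows of the Amd1 transcript also lie in Amd2, so the split between the pair is uncertain. Their summed level was 81.2 CPM in PM10/OVA/CPX and 108 CPM in PM10/OVA.

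Lists of other airway and alveolar cells held few members past the threshold. None of 13 ciliated-cell genes passed, with a median of 0.28, though 9 of them had log2 ratios above 0. Among them Rsph1, a part of the radial spoke of cilia, had a ratio of 1.76 (1.51 to 2.07). Outside the list, and chosen after their values were seen, several genes of motile cilia did pass. Nme5, a radial spoke protein, was at 17.5 CPM in PM10/OVA/CPX and 6.88 CPM in PM10/OVA, a ratio of 2.54 (2.01 to 3.23). Ccdc113, a protein of the ciliary axoneme, had a ratio of 2.41 (1.98 to 2.94), and Ccdc176, annotated as Bbof1 and a protein of ciliary basal bodies, had 2.48 (1.88 to 3.30). None of 12 alveolar type 2 genes passed, with a median of -0.14. The 11 club-cell genes held 1 member past the threshold, the P450 enzyme Cyp2a5, at 10.6 CPM in PM10/OVA/CPX and 33.2 CPM in PM10/OVA. Of 12 airway ion and water transport genes, only the glycerol channel Aqp3 passed, at 6.39 CPM in PM10/OVA/CPX and 2.46 CPM in PM10/OVA.

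The cytokines that drive allergic inflammation were near the limit of depth. None of the 10 measured members of the type 2 list was at least 2-fold higher or lower, and the median was -0.09. Il13, the cytokine that acts on goblet cells, had 15 counts in PM10/OVA/CPX and 7 counts in PM10/OVA, a ratio of 2.71 (1.04 to 7.86), and lay below the filter. Il4 was at 0.559 CPM in PM10/OVA/CPX and 0.946 CPM in PM10/OVA, and Il5, the eosinophil growth factor, had 0.319 CPM in PM10/OVA/CPX and 0.505 CPM in PM10/OVA. Il33, an epithelial alarm cytokine, was at 136 CPM in PM10/OVA/CPX and 232 CPM in PM10/OVA, 1.70 times lower (1.61 to 1.80). Its receptor gene Il1rl1 was at 20.8 CPM in PM10/OVA/CPX and 11.7 CPM in PM10/OVA, a ratio of 1.79 (1.47 to 2.17). Il17a, the cytokine of Th17 cells and below the filter, had 45 counts in PM10/OVA/CPX and 4 counts in PM10/OVA, a ratio of 14.2 (5.19 to 54.5). It was chosen after its values were seen.

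Eosinophil genes were higher in the PM10/OVA/CPX lung. Of 9 measured members, 3 were at least 2-fold higher, against 0.636% of all measured genes, and none was at least 2-fold lower. The median was 0.87, and 8 of the 9 had log2 ratios above 0. Prg2, the major basic protein of eosinophil granules (chromosome 2, 84980461 to 84983632), was at 10.6 CPM in PM10/OVA/CPX and 2.78 CPM in PM10/OVA, a ratio of 3.83 (2.70 to 5.51). Rnase2a, a ribonuclease of the eosinophil family known for macrophage expression too, was at 58.9 CPM in PM10/OVA/CPX and 15.0 CPM in PM10/OVA. Its level was 0.331 CPM in PM10 and 0.173 CPM in control, so it was nearly absent without ovalbumin. Ear2, a related ribonuclease, was at 279 CPM in PM10/OVA/CPX and 101 CPM in PM10/OVA, a ratio of 2.77 (2.61 to 2.94). It shares 23.6% of its 50-base windows with Ear1, so the 2 levels are not fully separate. Epx, eosinophil peroxidase and below the filter, had 13 counts in PM10/OVA/CPX and 1 count in PM10/OVA, a ratio of 16.5 (2.47 to 699). The summed level of the list was 544 CPM in PM10/OVA/CPX and 227 CPM in PM10/OVA, against 344 CPM in PM10/OVA/Dex, 202 CPM in PM10 and 147 CPM in control. Much of that sum was Ear2 and Ear1, the latter at 62.1 CPM in PM10/OVA/CPX and 33.6 CPM in PM10/OVA. Without ovalbumin Ear2 and Ear1 were already at 102 and 50.4 CPM in PM10. The sum therefore says little about the granule genes Prg2 and Epx.

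The eotaxins split. Ccl11, an eotaxin made by stroma and epithelium (chromosome 11, 82057832 to 82062955), was at 58.0 CPM in PM10/OVA/CPX and 27.3 CPM in PM10/OVA, a ratio of 2.13 (1.89 to 2.41). Ccl24, the eotaxin made by macrophages, was at 3.83 CPM in PM10/OVA/CPX and 9.78 CPM in PM10/OVA, 2.55 times lower (1.83 to 3.60). Ccl22, which attracts Th2 cells, was at 5.83 CPM in PM10/OVA/CPX and 21.7 CPM in PM10/OVA, 3.72 times lower (2.88 to 4.86). Their common list had 1 of 7 measured members at least 2-fold higher, 2 at least 2-fold lower and a median of 0.07.

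Mast-cell and basophil genes also went both ways. Mcpt1, the protease of mucosal mast cells, had 30 counts in PM10/OVA/CPX and 4 counts in PM10/OVA, a ratio of 9.49 (3.35 to 37.1). Mcpt8, the protease of basophils and below the filter, had 5 counts in PM10/OVA/CPX and 47 counts in PM10/OVA, 7.43 times lower (2.97 to 23.9). Ms4a2, a chain of the IgE receptor shared by both cells, had 11 counts in PM10/OVA/CPX and 61 counts in PM10/OVA, 4.38 times lower (2.28 to 9.23). Of the 10 measured members of the list, 1 passed the threshold on each side.

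Jchain, which joins IgA and IgM antibodies into polymers, was among the highest ratios. It was at 942 CPM in PM10/OVA/CPX and 74.4 CPM in PM10/OVA, a ratio of 12.7 (11.9 to 13.4). PM10/OVA/Dex was at 377 CPM, and PM10 and control were at 44.5 and 49.6 CPM. Mzb1, a chaperone of antibody assembly, was at 45.8 CPM in PM10/OVA/CPX and 10.9 CPM in PM10/OVA, a ratio of 4.19 (3.53 to 5.0). These were the only 2 of the 9 measured plasma-cell genes past the threshold, and the median was 0.63. Pigr, the receptor that carries IgA across epithelium, was at 1093 CPM in PM10/OVA/CPX and 576 CPM in PM10/OVA, just under 2-fold. Xbp1, a factor of secretory cells, was at 229 CPM in PM10/OVA/CPX and 259 CPM in PM10/OVA. The 9 B-cell genes had a median of -0.54, led by Fcer2a, the low-affinity IgE receptor, at 18.7 CPM in PM10/OVA/CPX and 40.1 CPM in PM10/OVA.

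**Figure D3:**
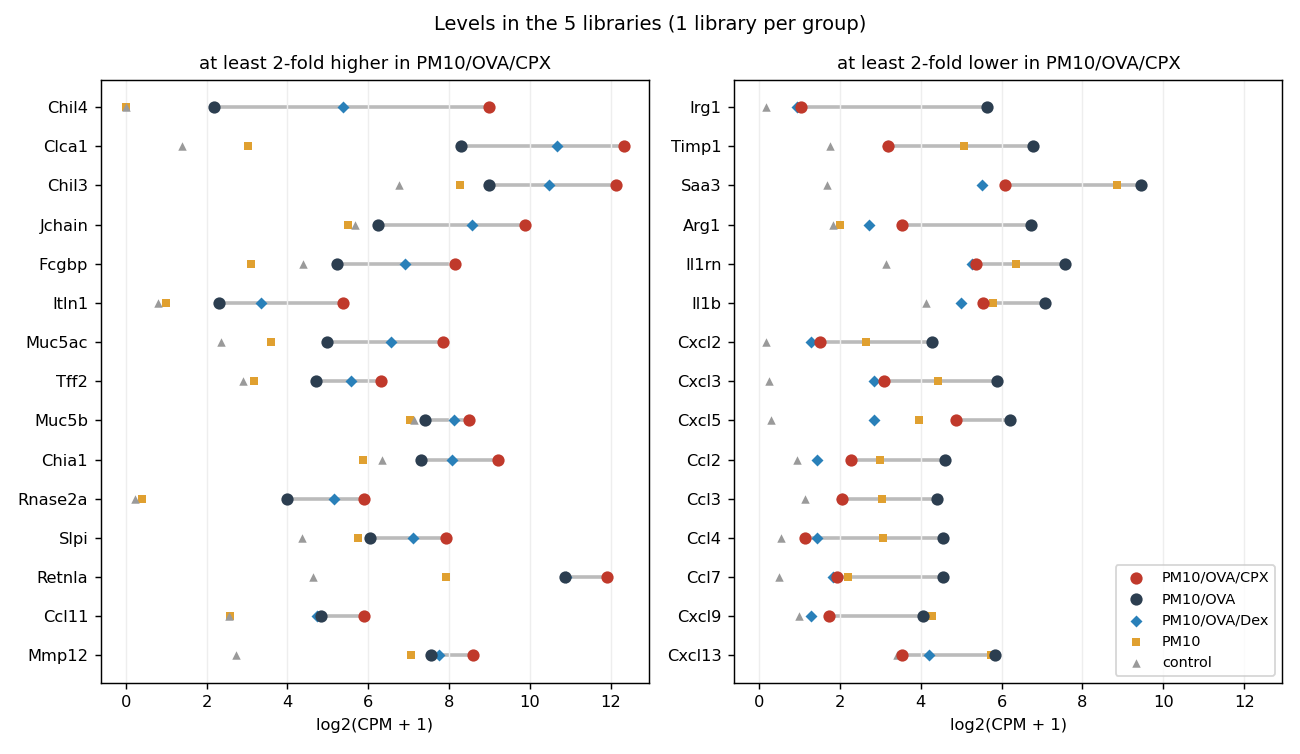
Points give log2(CPM + 1) in each of the 5 libraries for 15 genes past the threshold on the higher side (left) and 15 on the lower side (right), with a grey bar joining PM10/OVA/CPX to PM10/OVA. Clca1 spans from 5154 CPM in PM10/OVA/CPX to 1.61 CPM in control, and on the right Irg1 is at 1.04 CPM in PM10/OVA/CPX and at 49.0 CPM in both PM10/OVA and PM10.

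Chemokines that attract neutrophils were lower in the PM10/OVA/CPX lung. Of 9 measured members of that list, 5 were at least 2-fold lower, against 0.762% of all measured genes. None was at least 2-fold higher, and the median was -1.07. Cxcl3 was at 7.51 CPM in PM10/OVA/CPX and 57.7 CPM in PM10/OVA, 7.69 times lower (6.21 to 9.61). Cxcl2 was at 1.84 CPM in PM10/OVA/CPX and 18.5 CPM in PM10/OVA, 10.1 times lower (6.60 to 16.2). Both bind the neutrophil receptor Cxcr2 and were near 0 in control, at 0.173 and 0.115 CPM. Cxcl5, an epithelial chemokine with that receptor, was at 28.0 CPM in PM10/OVA/CPX and 73.4 CPM in PM10/OVA, 2.62 times lower (2.32 to 2.96). Cxcl1 was at 10.8 CPM in PM10/OVA/CPX and 23.8 CPM in PM10/OVA, 2.21 times lower (1.81 to 2.71). Pf4, the platelet chemokine, was 2.76 times lower (2.38 to 3.21). The receptor Cxcr2 was at 29.7 CPM in PM10/OVA/CPX and 53.9 CPM in PM10/OVA, 1.82 times lower (1.61 to 2.06). Cxcl15, a lung chemokine of alveolar epithelium, was the only member with a log2 ratio above 0, at 2595 CPM in PM10/OVA/CPX and 2107 CPM in PM10/OVA.

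Promoters of Cxcl3, Cxcl2 and Cxcl1 are printed because these neighbouring genes were lower together and carry the same run of bases. They lie on the plus strand at chr5:90785851-90786150, chr5:90903649-90903948 and chr5:90890995-90891294 (RefSeq, GRCm38.p6), and capitals mark the shared run.
Cxcl3: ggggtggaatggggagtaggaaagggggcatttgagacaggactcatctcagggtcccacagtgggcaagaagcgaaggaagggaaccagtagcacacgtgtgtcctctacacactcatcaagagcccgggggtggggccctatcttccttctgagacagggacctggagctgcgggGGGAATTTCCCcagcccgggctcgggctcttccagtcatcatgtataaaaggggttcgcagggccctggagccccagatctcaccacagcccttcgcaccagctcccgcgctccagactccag
Cxcl2: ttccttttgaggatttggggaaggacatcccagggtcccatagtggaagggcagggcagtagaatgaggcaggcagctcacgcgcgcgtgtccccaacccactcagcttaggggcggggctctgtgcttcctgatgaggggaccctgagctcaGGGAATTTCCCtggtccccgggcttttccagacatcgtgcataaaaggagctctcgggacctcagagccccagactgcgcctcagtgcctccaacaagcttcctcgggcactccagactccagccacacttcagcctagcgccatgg
Cxcl1: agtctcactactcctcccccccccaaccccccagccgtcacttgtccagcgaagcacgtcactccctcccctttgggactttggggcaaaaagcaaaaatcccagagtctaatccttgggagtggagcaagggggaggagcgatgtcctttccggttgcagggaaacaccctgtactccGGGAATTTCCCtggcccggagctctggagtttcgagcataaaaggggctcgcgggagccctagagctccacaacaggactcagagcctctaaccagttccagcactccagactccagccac
The run holds 2 overlapping matches of the NF-kB motif, the site read by a transcription factor of inflammation. On either strand the NF-kB motif was present in 2581 of 27025 RefSeq promoters of this length, which is 9.55%, in 2 of 16 promoters found for the 20 most lower genes and in 1 of 15 found for the 20 most higher. The run GGGAATTTCCC itself, chosen after the sequences were seen, was in 12 of the 27025 promoters, which is 0.0444%. Of those 12 genes 5 were measured, and the other 2, Hpn and Il16, had log2 ratios of 0.33 and -0.25. The STAT6 motif of the interleukin 4 pathway, TTC and GAA with 4 bases of any kind between them, was in 8.01% of all promoters, in 2 of the 15 promoters of higher genes (Sprr2a3 and Capn9) and in 2 of the 16 of lower genes (Il1f9 and Il1rn). A match describes letters only.

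Genes of the neutrophil itself were mixed. Of 15 measured members, 4 were at least 2-fold lower and none was at least 2-fold higher, with a median of -0.35. The 4 were Clec4e, Clec4d, Trem1 and Il1r2, receptors that monocytes and macrophages carry too. Clec4e was at 7.59 CPM in PM10/OVA/CPX and 51.2 CPM in PM10/OVA, 6.74 times lower (5.45 to 8.43). S100a8 and S100a9, the most abundant proteins of the neutrophil cytosol, were closer, with S100a8 at 107 CPM in PM10/OVA/CPX and 130 CPM in PM10/OVA. S100a9 was at 186 CPM in PM10/OVA/CPX and 238 CPM in PM10/OVA. Csf3r was at 57.2 CPM in PM10/OVA/CPX and 104 CPM in PM10/OVA, 1.82 times lower (1.66 to 1.99). Itgam was at 65.3 CPM in PM10/OVA/CPX and 122 CPM in PM10/OVA, 1.87 times lower (1.72 to 2.03). Across the list, log2 ratios of 11 members lay below 0 and those of 4 above it. Retnlg, a resistin-like gene of mouse neutrophils, was higher, at 149 CPM in PM10/OVA/CPX and 79.3 CPM in PM10/OVA. Summed over the list, the level was 803 CPM in PM10/OVA/CPX and 1013 CPM in PM10/OVA, and its part in the chemokine differences was not tested.

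Of 13 measured monocyte-attracting chemokines and receptors, 5 were at least 2-fold lower, against 0.762% of all measured genes. None was at least 2-fold higher, and the median was -0.83. Log2 ratios of 10 members lay below 0 and those of 3 above it, the highest at 0.60. Summed over the list, the level was not lower, at 1483 CPM in PM10/OVA/CPX and 1364 CPM in PM10/OVA. Ccl4, a chemokine made by activated macrophages, was at 1.20 CPM in PM10/OVA/CPX and 22.5 CPM in PM10/OVA, 18.8 times lower (11.2 to 33.9). Ccl7 was 7.97 times lower (5.62 to 11.6), Ccl3 6.50 times (4.65 to 9.32) and Ccl12 2.54 times (1.84 to 3.57). Ccl2, the main ligand of the monocyte receptor Ccr2 (chromosome 11, 82035577 to 82037452), was at 3.83 CPM in PM10/OVA/CPX and 23.2 CPM in PM10/OVA, 6.06 times lower (4.47 to 8.36). The receptor Ccr2 was close, at 122 CPM in PM10/OVA/CPX and 141 CPM in PM10/OVA. In PM10/OVA/Dex the levels of Ccl2, Ccl3, Ccl4 and Ccl7 were 1.68, 3.11, 1.68 and 2.52 CPM. The levels of the 2 drug groups come from separate libraries. Their differences from PM10/OVA share that 1 library, so these differences are not 2 separate observations.

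Cxcl13, which draws B cells into lymphoid follicles, was at 10.5 CPM in PM10/OVA/CPX and 56.2 CPM in PM10/OVA, 5.37 times lower (4.47 to 6.51). PM10 was at 52.4 CPM and control at 9.63 CPM, so PM10/OVA/CPX was near control and PM10/OVA near PM10. It was the only 1 of 9 lymphoid chemokine and receptor genes past the threshold.

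The next list held interleukin 1, interleukin 6, TNF, interleukin 17 and colony-stimulating cytokines. Of its 14 measured members, 6 were at least 2-fold lower, against 0.762% of all measured genes. None was at least 2-fold higher, and the median was -0.84. Below the filter, its member Il17a was higher, with 45 counts in PM10/OVA/CPX and 4 counts in PM10/OVA. Il1b was at 45.4 CPM in PM10/OVA/CPX and 133 CPM in PM10/OVA, 2.93 times lower (2.67 to 3.22). Il1rn, the natural antagonist of the interleukin 1 receptor (chromosome 2, 24336860 to 24351491), was lower still, at 40.4 CPM in PM10/OVA/CPX and 190 CPM in PM10/OVA, 4.71 times (4.29 to 5.19). The agonist and its antagonist thus went the same way. Il1f9, annotated as interleukin 36 gamma, was 5.77 times lower (4.24 to 8.0). Il6 had 5 counts in PM10/OVA/CPX and 58 counts in PM10/OVA, 9.16 times lower (3.71 to 29.3). Tnf was 3.69 times lower (2.36 to 5.99). Csf1, the growth factor of macrophages, was at 39.1 CPM in PM10/OVA/CPX, near the 39.4 CPM of control, and at 97.8 CPM in PM10/OVA. Csf3, the neutrophil growth factor, had no count in PM10/OVA/CPX, against 18 counts in PM10/OVA. It lay below the filter and was chosen after its values were seen.

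Of 18 measured NF-kB subunits and feedback inhibitors, 16 had log2 ratios below 0. Of the 18, 6 were lower by 1.5-fold or more, where 447 of the 14305 genes were. Only Tnfaip3, an enzyme that ends NF-kB signalling, passed 2-fold, at 34.7 CPM in PM10/OVA/CPX and 72.6 CPM in PM10/OVA, and the median was -0.35. The subunit Rela was at 95.1 CPM in PM10/OVA/CPX and 100 CPM in PM10/OVA. The subunit Nfkb2 was 1.86 times lower (1.69 to 2.06). The inhibitors Nfkbia, Nfkbie and Nfkbid were 1.71 times (1.62 to 1.82), 1.88 times (1.61 to 2.21) and 1.80 times lower (1.18 to 2.79).

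Of 12 measured acute-phase genes, 6 were at least 2-fold lower, against 0.762% of all measured genes, and none was at least 2-fold higher. The median was -1.02. Log2 ratios of 10 members lay below 0 and those of 2 above it, the highest at 0.62. Saa3, the serum amyloid made in tissues (chromosome 7, 46711998 to 46719615), was at 67.0 CPM in PM10/OVA/CPX and 694 CPM in PM10/OVA, 10.4 times lower (9.65 to 11.1). Control held 2.19 CPM, so the PM10/OVA/CPX lung stayed above the unexposed one. Hpx, which carries free haem, had 19 counts in PM10/OVA/CPX and 226 counts in PM10/OVA, 9.40 times lower (5.88 to 15.9). Hp, which carries free haemoglobin, was at 463 CPM in PM10/OVA/CPX and 979 CPM in PM10/OVA, and at 606 CPM in control. Lcn2, which withholds iron from bacteria, was just short of the threshold at 716 CPM in PM10/OVA/CPX and 1390 CPM in PM10/OVA. Orm1, Orm2 and Saa1 were the other members at least 2-fold lower.

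Macrophage genes went both ways. Irg1, annotated as Acod1, makes itaconate in activated macrophages (chromosome 14, 103047012 to 103056573). It had 13 counts in PM10/OVA/CPX and 776 counts in PM10/OVA, which is 1.04 CPM and 49.0 CPM, 47.2 times lower (27.4 to 89.0). PM10 was also at 49.0 CPM and control at 0.115 CPM. Arg1, the arginase of alternatively activated macrophages, was at 10.6 CPM in PM10/OVA/CPX and 104 CPM in PM10/OVA, 9.84 times lower (8.24 to 11.8). Its level in PM10 was only 2.98 CPM, so of the 5 lungs PM10/OVA alone was high for Arg1. Retnla, another marker of that state (chromosome 16, 48842609 to 48844461), went the other way, at 3846 CPM in PM10/OVA/CPX and 1857 CPM in PM10/OVA, a ratio of 2.07 (2.04 to 2.10). Mgl2, a lectin of macrophages and dendritic cells, had a ratio of 2.22 (1.97 to 2.51). Across the 13 genes of alternative activation, 2 passed on the higher side and 5 on the lower, with a median of -0.20. The scavenger receptors Msr1 and Cd163 were among the lower ones, at 3.74 times (3.28 to 4.27) and 3.47 times (2.75 to 4.43). Mrc1, the mannose receptor, was at 302 CPM in PM10/OVA/CPX and 287 CPM in PM10/OVA.

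Other receptors of activated myeloid cells were among the 20 most lower genes. Gpr84, a fatty-acid receptor, had 11 counts in PM10/OVA/CPX and 139 counts in PM10/OVA, 9.98 times lower (5.41 to 20.5). Mefv, which encodes pyrin, was 5.49 times lower (3.86 to 8.01). Alveolar macrophage genes were close, with a median of 0.24 over 13 members. Among them Marco, a scavenger receptor, was 2.86 times lower (2.25 to 3.66) and Krt79, a keratin found in mouse alveolar macrophages, had a ratio of 2.29 (1.99 to 2.63). The 8 class II antigen presentation genes and the 10 dendritic-cell genes had no member past the threshold, with medians of 0.12 and 0.17.

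Of 28 interferon-response genes, 4 were at least 2-fold lower, against 0.762% of all measured genes, and none was higher by that much. The median was -0.22, and 24 of the 28 had log2 ratios below 0. Of these 4, 3 were the chemokines Cxcl9, Cxcl10 and Cxcl11, which attract T cells through Cxcr3. Cxcl9 was at 2.32 CPM in PM10/OVA/CPX and 15.5 CPM in PM10/OVA, 6.70 times lower (4.55 to 10.2), and Cxcl10 was 4.46 times lower (3.18 to 6.41). Cxcl11 had 1 count in PM10/OVA/CPX and 50 counts in PM10/OVA, 39.5 times lower (6.77 to 1591). Rsad2, an antiviral enzyme, was at 20.1 CPM in PM10/OVA/CPX and 47.0 CPM in PM10/OVA. Gbp5, a GTPase that interferon induces, and Oas3, a sensor of viral RNA, were 1.91 times (1.64 to 2.23) and 1.88 times lower (1.49 to 2.39). The antiviral genes Ifit1 and Isg15 were at 36.4 and 21.1 CPM in PM10/OVA/CPX, against 47.6 and 29.3 CPM in PM10/OVA. Of 14 T-cell genes only Il2ra, a chain of the interleukin 2 receptor, passed the threshold, 2.37 times lower (1.70 to 3.36).

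Fibrosis is named in the series title, and matrix genes are its usual transcript readout. Of 34 collagen and matrix genes, 1 was at least 2-fold lower, against 0.762% of all measured genes, and none at least 2-fold higher. The median was -0.17. Col1a1, a chain of the main fibrillar collagen (chromosome 11, 94936224 to 94953042), was at 348 CPM in PM10/OVA/CPX and 371 CPM in PM10/OVA, with 304 CPM in PM10/OVA/Dex, 495 CPM in PM10 and 292 CPM in control. Col3a1, its partner in soft tissue, was at 886 CPM in PM10/OVA/CPX and 998 CPM in PM10/OVA. Fibronectin, Fn1, was at 685 CPM in PM10/OVA/CPX and 620 CPM in PM10/OVA. Col4a1 and Col4a2, collagens of the basement membrane, were 1.52 times (1.48 to 1.55) and 1.5 times lower (1.46 to 1.54). The member past the threshold was Vcan, a large proteoglycan, at 13 CPM in PM10/OVA/CPX and 33.8 CPM in PM10/OVA.

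TGF-beta pathway genes were close too, with 2 of 28 at least 2-fold lower, against 0.762% of all measured genes, and a median of -0.12. Tgfb1 itself was at 122 CPM in PM10/OVA/CPX and 135 CPM in PM10/OVA. The lower 2 were Tgfbi, a matrix protein that TGF-beta induces, at 102 CPM in PM10/OVA/CPX and 230 CPM in PM10/OVA, and Inhba, an activin subunit, at 4.71 CPM in PM10/OVA/CPX and 11.8 CPM in PM10/OVA.

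Enzymes that cut matrix and their inhibitors differed more. Timp1, an inhibitor of metalloproteinases (chromosome X, 20870166 to 20874737), was at 8.14 CPM in PM10/OVA/CPX and 108 CPM in PM10/OVA, 13.2 times lower (10.8 to 16.3). It was at 8.16 CPM in PM10/OVA/Dex, 32.6 CPM in PM10 and 2.36 CPM in control, so the PM10/OVA lung was the highest of the 5. Its relatives Timp2 and Timp3 were close, with Timp2 at 530 CPM in PM10/OVA/CPX and 547 CPM in PM10/OVA. Mmp12, the elastase of macrophages (chromosome 9, 7344397 to 7360461), was at 383 CPM in PM10/OVA/CPX and 188 CPM in PM10/OVA, a ratio of 2.03 (1.94 to 2.13). Control held 5.59 CPM of it. Mmp3, stromelysin, was 3.97 times lower (3.26 to 4.86), and Mmp19 and Adamts4 were 2.24 times (1.99 to 2.53) and 3.11 times lower (1.78 to 5.77). In all, 1 of 19 measured members passed on the higher side and 4 on the lower.

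Stress-response genes gave a few large differences. Hmox1, the haem-degrading enzyme, was at 43.3 CPM in PM10/OVA/CPX and 153 CPM in PM10/OVA, 3.54 times lower (3.22 to 3.89). Slc7a11, the cystine importer, was at 21.4 CPM in PM10/OVA/CPX and 65.7 CPM in PM10/OVA, 3.07 times lower (2.68 to 3.52). Both are targets of the oxidant sensor NRF2, and they were the only 2 of its 13 listed targets past the threshold, with a median of -0.11. The metallothionein Mt2 and the zinc and iron importer Slc39a14 were 2.81 times (2.46 to 3.23) and 2.29 times lower (1.96 to 2.69). None of 17 endoplasmic reticulum stress genes passed, with a median of -0.39, and the chaperone Hspa5 was at 565 CPM in PM10/OVA/CPX and 1019 CPM in PM10/OVA. Of 9 glucocorticoid-responsive genes, Zbtb16 was the only one past the threshold, at 22.2 CPM in PM10/OVA/CPX and 6.31 CPM in PM10/OVA, and at 21.2 CPM in PM10/OVA/Dex and 25.9 CPM in control. Fkbp5, the usual marker of glucocorticoid action, was at 30.8 CPM in PM10/OVA/CPX and 27.1 CPM in PM10/OVA. The 28 cell-cycle genes had no member past the threshold and a median of 0.02.

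**Figure D4:**
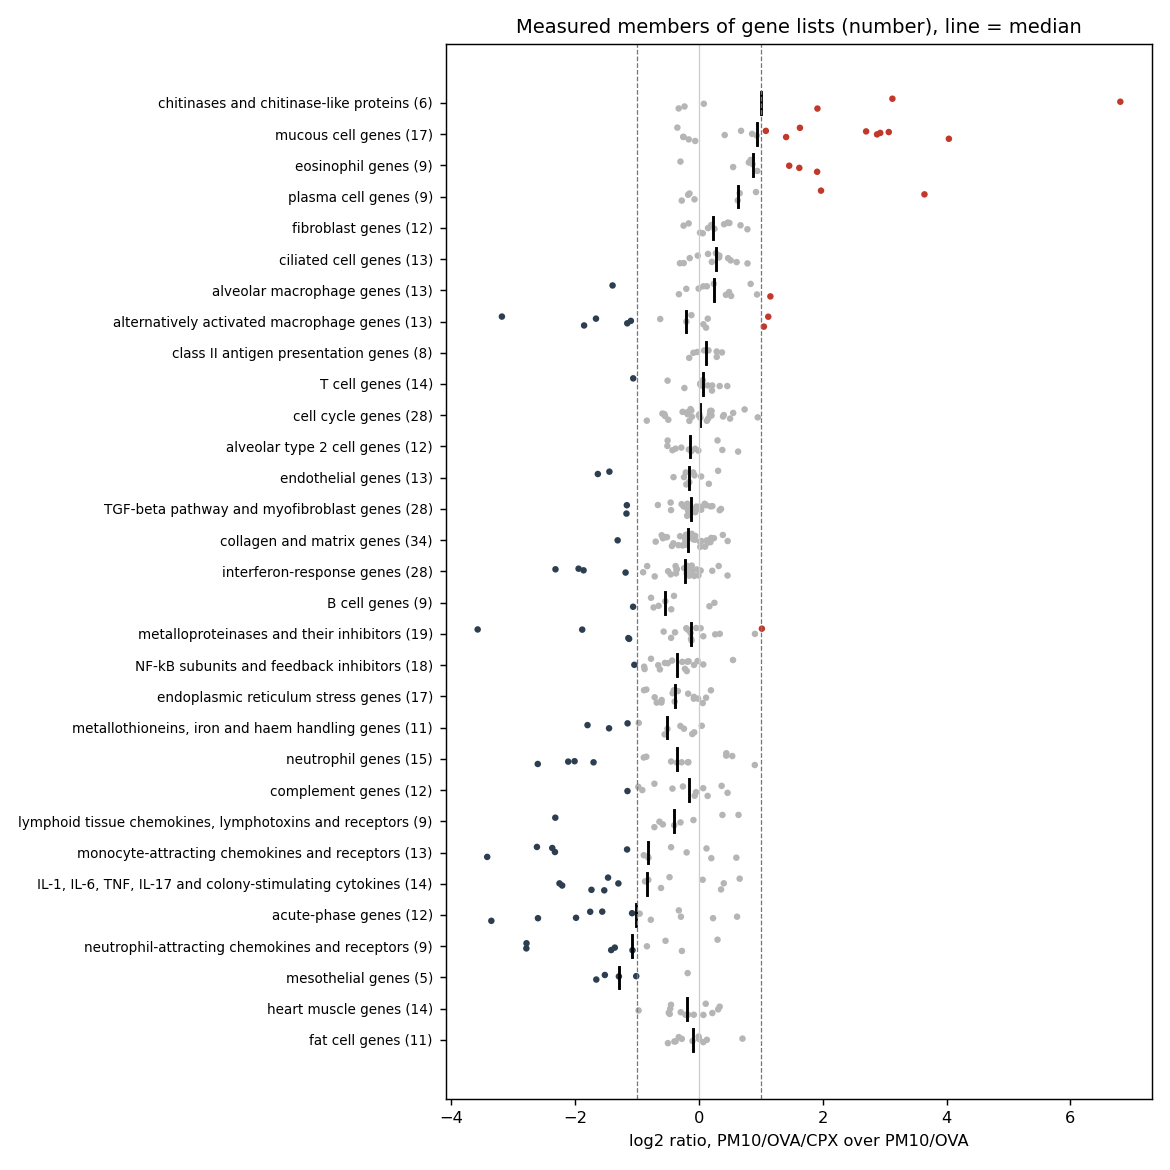
Each point is a measured member of a gene list, with its log2 ratio of PM10/OVA/CPX over PM10/OVA on the horizontal axis, a black line at the list median and dashed lines at 2-fold. Medians run from 1.0 for the 6 chitinase genes and 0.93 for the 17 mucous-cell genes to -1.07 for the 9 neutrophil-attracting chemokine genes and -1.29 for the 5 mesothelial genes.

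Mesothelial genes, from the cells that cover the lung, were at least 2-fold lower in 4 of 5 measured members, with a median of -1.29. Msln, mesothelin, was at 24.7 CPM in PM10/OVA/CPX and 61.9 CPM in PM10/OVA, 2.51 times lower (2.20 to 2.86). Upk3b, a membrane protein of that lining, was at 12.2 CPM in PM10/OVA/CPX and 40.7 CPM in PM10/OVA, 3.33 times lower (2.79 to 4.0). Gpm6a, the member that did not pass, was 1.14 times lower (1.04 to 1.24). All 5 members were lowest in PM10/OVA/CPX among the 5 libraries, and the summed level was 116 CPM in PM10/OVA/CPX and 205 CPM in PM10/OVA, against 217, 198 and 260 CPM in PM10/OVA/Dex, PM10 and control. The part of this difference in the other results was not tested. Heart-muscle genes were near each other in the compared libraries, at a summed 281 CPM in PM10/OVA/CPX and 322 CPM in PM10/OVA. In control their sum was 3637 CPM. Fat-cell genes summed to 107 CPM in PM10/OVA/CPX and 121 CPM in PM10/OVA, and red blood cell genes to 1205 CPM in PM10/OVA/CPX and 1394 CPM in PM10/OVA. None of 14 heart, 11 fat or 12 fibroblast genes was at least 2-fold higher or lower. Of the endothelial genes, Sele and Selp, adhesion proteins of activated vessels, were 4.65 times (2.76 to 8.29) and 2.96 times lower (2.35 to 3.76), and the other 11 did not pass. Pecam1, an endothelial marker, was at 901 CPM in PM10/OVA/CPX and 947 CPM in PM10/OVA. None of 13 housekeeping genes passed, with a median of -0.15.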

How the data were processed

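Whole lung of 5 mouse groups was sequenced, 1 library each. Per the labels' protocols, Trizol was used to extract RNA, of which 1.3 ug went into each library with a strand-keeping NEBNext kit. Per the submitters' processing notes, TopHat and the mm10 build were used. The sources used here name no versions, counting tool, annotation or strand setting, so levels of overlapping, antisense and near-identical genes are uncertain. The authors deposited 1 table per library of raw, whole-number counts by gene symbol, with totals of 11993222 to 16929068.

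From these, CPM were computed with TMM factors over the 5 libraries (edgeR 4.0.16, R 4.3.3). Ratios use log2(CPM + 1) and cover genes averaging 1 CPM or more. Folds have exact conditional (Clopper-Pearson) 95% intervals, and a count of 0 is given a limit of 3 counts. The steps were checked on simulated data. DESeq2 1.42.0 gave size factors for an alternative, and other pseudocounts, filters and call rules were tried. Genes named were the 20 highest and 20 lowest ratios (predicted models, small RNAs and receptor or antibody segments left out) and all chitinase genes. From the lists, genes were drawn from the first 3 members, those past 2-fold and up to 6 with the largest ratios. Not every list or such member is described. Members at least 2-fold lower that are left out include F13a1, Hba-a2, C5ar1, Cyp1b1, Egr3, Pla2g5 and Trp63. Cxcl15, Rela, Timp2 and Timp3 were named for contrast after their values were seen. The comparison, members and lists were chosen with earlier results of these data known. Of the measured genes, 14266 matched RefSeq (GRCm38.p6) for positions and promoters.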

Additional observations from a re-analysis of the deposited data

How the results depend on the processing

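At the 2-fold threshold the count of higher genes moved from 91 to 177 with a pseudocount of 0.25 and to 35 with 5. It was 50 among genes averaging 5 CPM or more, 54 where the whole counting interval had to lie beyond 2-fold, 434 at 1.5-fold and 11 at 4-fold. The count of lower genes moved from 109 to 182 and 58 with those pseudocounts, to 447 at 1.5-fold and to 22 at 4-fold, and was 76 and 74 under the stricter filter and the interval. With DESeq2 size factors, library totals and TMM factors of the 2 libraries alone, 90 to 93 genes were higher and 108 or 109 lower. With no filter the counts were 105 and 126. Under these 3 scalings the fold of none of the named genes with a fold moved beyond its counting interval. The scalings lay close together, so this was a weak check. No value past 2-fold turned its direction, but a pseudocount cannot turn it and scalings so alike could hardly do so. List counts moved more often. With the whole interval beyond 2-fold, 6 list counts of higher and 11 of lower genes moved by over 1.5 times, and with a pseudocount of 5, 3 and 13 did. Lists with 1 member past the threshold often held none then, such as the NF-kB, T-cell and B-cell lists on the lower side under both settings. Genes of alternative activation held 3 lower members under both, and the metalloproteinase list held 2 lower and no higher members under the interval. The mucous-cell median was 0.60 with a pseudocount of 5 and 0.68 among genes averaging 5 CPM or more, and the plasma-cell median 0.34 and 0.29. By more than the half-width of the counting interval (for a list, its members' median half-width), 8 list medians moved and 432 did not, and with other pseudocounts 54 log2 ratios of named genes moved and 734 did not. No paired analysis was possible because each group has 1 library. For the same reason no library could be left out, and differences between lungs, dissections and library preparations cannot be told apart from the treatment.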

Other observations

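More genes differed between the 2 lungs, and except for Chl1 the ones named here were chosen after their values were seen. Below the filter on low values, 27 genes were higher and 23 lower in PM10/OVA/CPX with the whole counting interval beyond 2-fold. Retnlb, a resistin-like protein of goblet cells, had 34 counts in PM10/OVA/CPX and 6 counts in PM10/OVA, a ratio of 7.17 (2.98 to 20.9). Gcnt3, an enzyme that branches mucin sugars, had 33 counts in PM10/OVA/CPX and 6 counts in PM10/OVA, a ratio of 6.96 (2.88 to 20.3). Fgf23, a hormone of phosphate balance best known from bone, had 3 counts in PM10/OVA/CPX and 48 counts in PM10/OVA, a ratio of 0.0791 (0.0158 to 0.245).

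Among measured genes, Serpina3n, a protease inhibitor of the acute phase, was at 86.6 CPM in PM10/OVA/CPX and 311 CPM in PM10/OVA, 3.59 times lower (3.36 to 3.84). Il4i1, an amino acid oxidase of myeloid cells, was at 8.22 CPM in PM10/OVA/CPX and 38.7 CPM in PM10/OVA, 4.71 times lower (3.82 to 5.86). Nlrp3, the sensor of an inflammasome, was 2.99 times lower (2.36 to 3.82). Vnn1, a pantetheinase, was at 57.3 CPM in PM10/OVA/CPX and 19.1 CPM in PM10/OVA, a ratio of 3.00 (2.62 to 3.44). Chl1, a cell adhesion molecule of nerves and among the 20 most lower genes, was at 1.84 CPM in PM10/OVA/CPX and 20.2 CPM in PM10/OVA, 11 times lower (7.20 to 17.6), and at 5.36 CPM in control.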
